A study of Mus musculus with 10 samples.

Results

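Loss of the SET domain of the histone methyltransferases MLL3 and MLL4 was examined in brown fat cell cultures by setting a library treated with 4-hydroxytamoxifen (4OHT) against a mock library of the same line, called Mll3/4SET. The comparison holds 2 of the series' 10 samples, chosen by their line and treatment labels, with 1 RNA library a side. The cells were brown preadipocytes of newborn mice, taken from the fat pad between the shoulder blades, made immortal with the SV40 large T antigen, and carried floxed Mll3, a floxed Mll4 SET domain and CreER (Mll3f/f;Mll4SETf/f;CreER). CreER is a Cre recombinase that 4OHT switches on, so the 4OHT culture is meant to be the deleted one and the mock culture to keep the floxed genes. The promoter that drives CreER and the number of independent lines are not given in the sources used here.

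Both cultures shared the genotype, the large T antigen, a medium with 10% serum and the same inducing mix of insulin (0.02 μM), T3 (1 nM), IBMX (0.5 mM), dexamethasone (2 μg/ml) and indomethacin (0.125 mM). They are labelled as mature adipocytes of day 7. The title of the 4OHT library says day 0, while its stage label and the header of the table say day 7, so its day is in doubt. The inducing mix was given at day 0, followed by insulin and T3. A line without floxed genes treated with 4OHT was not analysed here, and effects of the deletion, of the drug and of active CreER cannot be told apart. If the title is right, the libraries also differ in day of differentiation, and a culture at day 0 has not yet formed fat cells, so that day and treatment cannot be told apart in any difference below. Fewer fat cells and less RNA per fat cell cannot be told apart in these bulk libraries either.

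MLL3 and MLL4 place single methyl groups on lysine 4 of histone H3 at enhancers, and their SET domain carries out that reaction. In fat cell formation, early factors such as C/EBPβ and C/EBPδ switch on PPARγ and C/EBPα, which then turn on the genes that take up, make, store and release fat. MLL4 is known to be needed for this switch in mouse preadipocytes. Preadipocytes that do not become fat cells keep features of fibroblasts, with actin stress fibres and a collagen-rich matrix.

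Levels are RPKM, that is reads scaled to transcript length and to library size. The libraries held 15428079 reads (mock) and 15356813 reads (4OHT), summed over 1 transcript per gene. A gene was called lower or higher where log2((4OHT RPKM + 1)/(mock RPKM + 1)) was -1 or less, or 1 or more, provided its higher library reached 1 RPKM. With 1 library a side no test is possible, no difference has a replicate check, and the calls rest on this fixed 2-fold size. Folds are ratios of RPKM without the added 1, so a gene of low level can exceed 2-fold and still stay inside the limit. The range after a fold is its exact 95% interval for counting error only.

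The 4OHT library held little RNA of fat cell genes, and part of the contractile, matrix-remodelling and lysosomal genes was higher by smaller steps. The calls numbered 903 lower (7.41%) and 633 higher (5.2%) among 12183 measured genes, or 12.6% in either direction, and 58.8% of the calls were lower. These shares of 7.41% and 5.2% are the ones to set beside each list count below. The sizes were uneven, since 311 genes had a log2 difference of -2 or less and 42 had one of 2 or more. At -4 or less there were 64 genes, and none reached 4 on the other side. Genes called lower held 18.4% of the mock reads and 3.33% of the 4OHT reads, while genes called higher held 4.10% and 10.8%. The median over all measured genes was 0.12 on the log2 scale. Median-ratio scaling, which sets the typical gene to the same level in both libraries, moved it to 0.01 and changed the split to 1014 lower and 462 higher genes, 68.7% lower. Among the genes named as higher, Bax, Bub1b, Ccnb1, Col8a1, Dnmt1, Itgb1, Lamp1, Mirg, Pdlim5, Phgdh, Tead1 and Tpx2 fell inside the limit under that scaling.

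**Figure D1:**
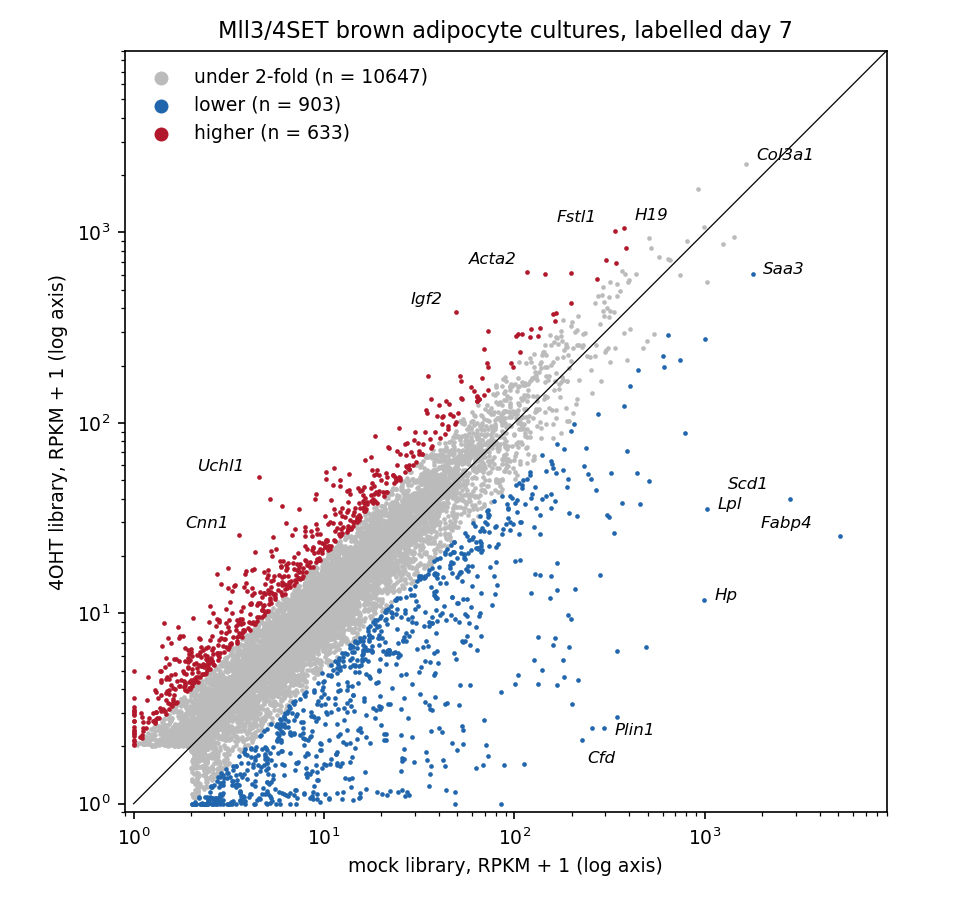
RPKM + 1 of 12183 measured genes in the mock library (horizontal, log axis) and the 4OHT library (vertical, log axis), 1 point a gene, with equal levels on the line. Blue points are the 903 genes called lower and red points the 633 called higher; the blue points reach much farther from the line, down to Fabp4 at 5119 against 24.3 RPKM.

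The most abundant RNAs were not the same in the libraries. In the mock library the 3 genes with the highest RPKM were Fabp4, Scd1 and Saa3, a fatty acid carrier, a fatty acid desaturase and an acute-phase protein. In the 4OHT library they were Col3a1, Bgn and Sparc, which encode a collagen, a matrix proteoglycan and a collagen-binding protein. Col3a1 stood at 1636 RPKM in mock against 2294 RPKM with 4OHT, Bgn at 924 against 1696 RPKM and Sparc at 991 against 1072 RPKM. All of these were under the 2-fold limit, and in mock they already ranked 4, 12 and 10. Saa3 was lower, at 1779 against 602 RPKM, 2.96-fold (2.88 to 3.04). Among the 8 genes with a mean of 1000 RPKM or more, 3 were lower and none was higher, and of the 326 genes between 100 and 1000 RPKM 53 (16.3%) were lower and 37 (11.3%) were higher. In the 6677 genes under 10 RPKM these shares were 6.77% and 5.02%.

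The genes targeted in the line stayed under the limit. Mll3 (current symbol Kmt2c) was at 7.48 RPKM in mock against 5.46 RPKM with 4OHT and Mll2 (current symbol Kmt2d), which encodes the MLL4 of the line's name, at 13.6 RPKM in mock against 12.2 RPKM with 4OHT. Counts over a whole transcript do not show whether a few exons are missing, so these values do not check the deletion. Nor did any of the 20 measured members of the MLL and SET1 complexes pass the limit, with a median log2 difference of 0.16 beside the 0.12 of all genes. The lowest after Mll3 was Kdm6a, an H3K27 demethylase of the MLL3 and MLL4 complexes, at 7.12 against 5.47 RPKM. The highest was Men1, the menin subunit of the KMT2A and KMT2B complexes (not of the Kmt2d product above), at 9.96 against 14.3 RPKM. Paxip1 and Ncoa6, subunits specific to the MLL3 and MLL4 complexes, were at 6.79 against 7.16 RPKM and at 11.1 against 12.7 RPKM. Of 61 measured enhancer coactivators and chromatin readers, 3 were lower and none higher, beside 7.41% and 5.2% of all genes. Tet3, an enzyme that oxidises methylated cytosine, was 2.44-fold lower (2.296 to 2.58). Nrip1, a nuclear receptor corepressor, was 2.34-fold lower (2.12 to 2.57) and Ncoa1, a nuclear receptor coactivator, 2.26-fold lower (2.12 to 2.42). The median of this list, 0.06, turned to -0.05 under median-ratio scaling.

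The label of mature adipocytes was checked against marker genes. All 12 adipocyte markers were measured, and their summed level was 7694 RPKM in mock and 81.3 with 4OHT. In the 4OHT library the highest of them was Lpl at 34.3 RPKM and the lowest Lep, the gene of the hormone leptin, at 0.0142. Several markers of brown fat were weak even in mock. Ucp1, the uncoupling protein that makes heat, was at 1.45 RPKM in mock against 0.0561 RPKM with 4OHT (53 and 2 reads), and Cidea and Dio2 were under 1 RPKM in both libraries. Cox7a1, a brown fat subunit of cytochrome oxidase, was at 67.99 RPKM in mock against 1.76 RPKM with 4OHT. The transcription factor genes Lhx8 and Zic1, which mark the brown lineage, were at 11.5 against 11.1 RPKM and at 6.61 against 7.86 RPKM, well within the limit. Fibroblast and preadipocyte markers were abundant in both libraries, at summed levels of 4516 and 4943 RPKM. Of the 10 measured, Ly6a and Pdgfra were lower and none was higher.

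Other cell types gave little signal. Of 13 macrophage and leukocyte markers 5 were measured, with summed levels over the list of 13.1 RPKM in mock and 4.34 with 4OHT. Ptprc, which marks all leukocytes, was at 0 reads in both libraries, while Cd74 and Mpeg1 were lower, at 4.52 against 0.189 RPKM and at 3.32 against 0.245 RPKM. Of 19 skeletal muscle markers 4 were measured, with Myod1, Myog, Myf5 and Myf6, genes of muscle identity, at 0 reads. Pax3, a measured member, was at 1.70 RPKM in mock against 3.17 RPKM with 4OHT, inside the limit. Of 12 endothelial and pericyte markers 2 were measured and of 13 epithelial and neural markers 1, with Cdh5 and Pecam1, which define endothelium, at 0 reads. No member of these last 2 lists passed the limit, and Acta1 alone did among the muscle markers, at 1.47 RPKM in mock against 4.76 RPKM with 4OHT.

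**Figure D2:**
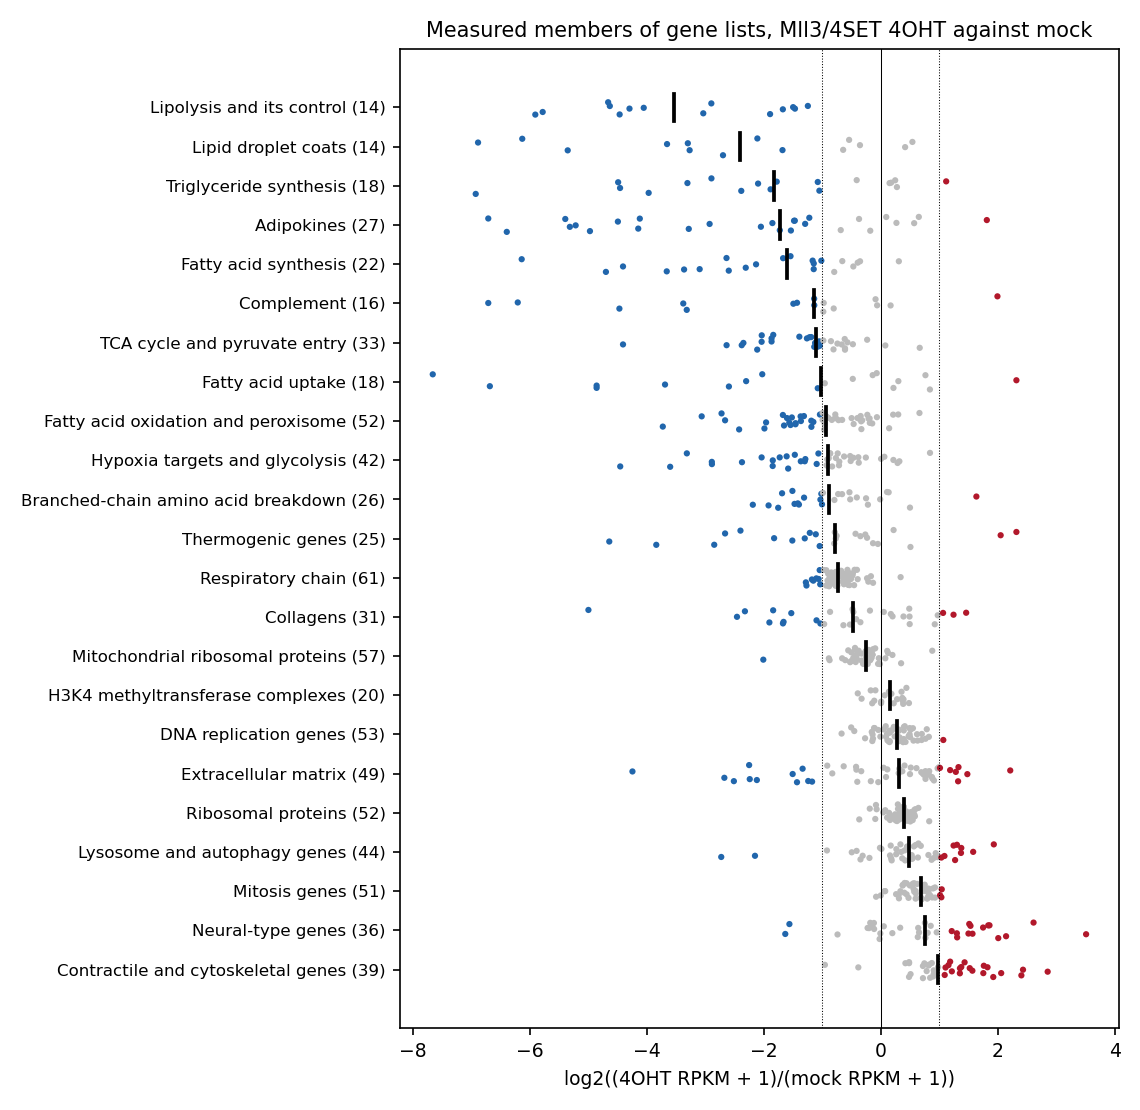
Difference of each measured member of 23 gene lists on the log2(RPKM + 1) scale (horizontal), 1 point a gene, with the number of measured members in brackets and the list median as a black bar. Dotted lines mark the 2-fold limit; lipolysis genes lie farthest to the left with a median of -3.54, and contractile genes farthest to the right with 0.98.

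Among the transcription factors of fat cell formation, the late factors were lower with 4OHT, and the early C/EBP factors stayed inside the limit. Pparg, the nuclear receptor that directs fat cell formation, was at 100.3 RPKM in mock against 3.23 RPKM with 4OHT, 31.0-fold lower (25.9 to 37.4). Cebpa, its partner, was at 158 against 5.82 RPKM, 27.2-fold lower (24.4 to 30.4). The early factors had Cebpb at 98.6 against 86.2 RPKM and Cebpd at 20.04 against 25.2 RPKM. Regulators of lipid genes were also low. Mlxipl encodes ChREBP, a glucose-sensing factor, and was at 15.5 RPKM in mock against 0.1896 RPKM with 4OHT. Srebf1, the SREBP1 gene, was at 166 against 17.3 RPKM, and Nr1h3, the LXRα gene, at 11.4 against 0.640 RPKM. Zfp423, a preadipocyte commitment factor, Ppara and Foxo1 made up the 8 lower genes of 33 measured. Rxra, the shared partner of PPARγ and LXR, was at 15.9 against 15.96 RPKM, and Egr2 at 3.94 against 3.92 RPKM, the members nearest to no difference.

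The 2 higher members of the list, Klf4 and Gata2, have opposite known roles. Klf4, an early activator of Cebpb in mouse preadipocytes, was at 16.6 RPKM in mock against 65.3 RPKM with 4OHT, 3.93-fold higher (3.68 to 4.195). Gata2, which holds preadipocytes back from becoming fat cells, was at 1.32 against 4.41 RPKM, 3.35-fold higher (2.65 to 4.26). The list median was -0.27, so a typical factor of the cascade differed little while its late members stood far below the rest.

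Promoters of the adipocyte markers were searched for the core of a C/EBP binding site, because these genes were low together. The motif was TTGCNNAA on either strand (TTNNGCAA on the strand shown). RefSeq promoters of assembly GRCm38.p6 run from 250 bases before to 50 after a gene's start and were given for 10 of the 12 genes, of which 4 (40%) held the motif: Plin1, Cidec, Lep and Pparg. Over all genes with a promoter the share was 12.2% (3298 of 27025). The Pparg window lies at chr6:115421816-115422115 on the plus strand and the Plin1 window at chr7:79732727-79733026 on the minus strand. Both are shown because each holds 2 matches, written in capitals, first bases at -215 and -16 from the start in Pparg and at -187 and -58 in Plin1.
Pparg: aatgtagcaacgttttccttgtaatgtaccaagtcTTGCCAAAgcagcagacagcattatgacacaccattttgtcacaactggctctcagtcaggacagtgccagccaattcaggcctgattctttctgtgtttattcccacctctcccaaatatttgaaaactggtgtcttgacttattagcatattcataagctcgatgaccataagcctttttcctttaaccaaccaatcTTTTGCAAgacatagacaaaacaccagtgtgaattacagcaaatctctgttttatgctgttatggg
Plin1: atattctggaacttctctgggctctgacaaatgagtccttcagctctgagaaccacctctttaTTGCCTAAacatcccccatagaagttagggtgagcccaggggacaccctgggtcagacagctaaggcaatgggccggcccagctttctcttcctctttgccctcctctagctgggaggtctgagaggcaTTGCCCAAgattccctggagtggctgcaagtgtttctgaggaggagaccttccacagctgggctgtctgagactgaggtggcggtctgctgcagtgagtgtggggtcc
A match describes the letters only, and no binding was measured in these cultures.

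Of 18 measured genes of fatty acid uptake and binding 9 were lower and 1 was higher, with a median of -1.02. Fabp4, the main fatty acid carrier of fat cells, fell from 73049 to 338 reads, 5119 RPKM in mock against 24.3 RPKM with 4OHT, 210.5-fold lower (189 to 235). Cd36, a membrane fatty acid transporter, was 171-fold lower (142 to 208). Lpl, the lipase that frees fatty acids from blood lipoproteins, went from 1022 to 34.3 RPKM, 29.8-fold lower (28.7 to 30.9). Acsl1, which couples fatty acids to coenzyme A, was 33.97-fold lower (31.01 to 37.3). The other listed Acsl genes did not pass the limit, though Acsl4, at 33.9 against 16.96 RPKM, did so under median-ratio scaling. Acsl3 was at 6.41 against 4.32 RPKM and Acsl5 at 10.1 against 12.7 RPKM. Fabp3, a carrier of muscle and heart, was higher, at 0.702 RPKM in mock against 7.496 RPKM with 4OHT (10 and 104 reads).

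Enzymes that build fatty acids were lower at each main step. Acly, which makes acetyl-CoA from citrate, was 4.48-fold lower (4.31 to 4.65), Acaca, which makes malonyl-CoA, 6.67-fold lower (6.38 to 6.97), and Fasn, the fatty acid synthase, 13.1-fold lower (12.7 to 13.5). Scd1, which puts the first double bond into fatty acids, was at 2801 RPKM in mock against 38.8 RPKM with 4OHT, 72.3-fold lower (70.1 to 74.5). Scd2, its relative, was at 507 against 48.4 RPKM, 10.5-fold lower (10.2 to 10.8), so that Scd2 stood above Scd1 with 4OHT and below it in mock. Suppliers of the path were low as well. Me1, malic enzyme, was 9.06-fold lower (8.498 to 9.66), Pcx, pyruvate carboxylase, 23.6-fold lower (21.97 to 25.5), and Slc25a1, the citrate carrier, 2.98-fold lower (2.78 to 3.19). Of 22 measured members 16 were lower and none was higher, with a median of -1.61. The enzymes of polyunsaturated and very long chains lay nearer to mock, with Fads1 at 66.96 against 50.7 RPKM, Elovl5 at 32.3 against 23.1 RPKM and Elovl1 at 28.7 against 35.9 RPKM.

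At each step of triglyceride synthesis at least 1 enzyme was lower. Gpd1, which makes glycerol-3-phosphate, was at 346 RPKM in mock against 1.86 RPKM with 4OHT, 186-fold lower (155 to 227). Gpam and Agpat9 (current symbol Gpat3), which add the first acyl chain, were 8.302-fold lower (7.64 to 9.04) and 29.3-fold lower (25.2 to 34.2). Agpat2, which adds the next and is mutated in a human lipodystrophy, was at 208 against 12.3 RPKM. Its relative Agpat1 was near mock, at 26.4 against 29.5 RPKM. Agpat6 (current symbol Gpat4), which adds the first acyl chain as Gpam does, was also near mock, at 22.1 against 25.1 RPKM. Agpat4 was the only higher member, at 3.79 against 9.39 RPKM. Lpin1, the phosphatidate phosphatase, was 5.73-fold lower (5.35 to 6.13), while its relative Lpin2 was at 3.75 against 4.64 RPKM. Dgat2 and Dgat1, which add the last chain, were 27.1-fold lower (23.7 to 31.02) and 4.53-fold lower (4.11 to 5.01). Pck1, which feeds glycerol formation from pyruvate, was at 9.58 against 0.0705 RPKM (558 and 4 reads). The count was 12 lower and 1 higher of 18, with a median of -1.83.

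Part of the coat proteins of lipid droplets was lower. Plin1, the perilipin that guards the droplet in fat cells, was at 293 RPKM in mock against 1.49 RPKM with 4OHT, 197-fold lower (153 to 258). Plin4 was at 112 against 0.609 RPKM and Cidec, which lets droplets fuse into large ones, at 71.9 against 0.786 RPKM. Plin2, a perilipin of many cell types, was 10.1-fold lower (9.56 to 10.7). Plin3, another widely used perilipin, was at 22.5 against 33.2 RPKM, inside the limit. Cav1 and Cav2, the caveolins of membrane pits abundant in fat cells, were 9.86-fold lower (9.42 to 10.3) and 13.5-fold lower (12.5 to 14.7), while Ptrf (current symbol Cavin1), which builds the same pits, was at 116 against 73.99 RPKM. Bscl2, the seipin gene, was 3.34-fold lower (3.06 to 3.64). The list had 9 lower and no higher member of 14 measured.

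Of 18 listed genes of lipolysis and its control 14 were measured, and all of these were lower, with a median of -3.54. The 3 lipases of stored fat act in sequence, and each was low. Pnpla2 (adipose triglyceride lipase) was at 191 RPKM in mock against 8.79 RPKM with 4OHT, 21.8-fold lower (19.9 to 23.8). Lipe (hormone-sensitive lipase) was at 200.3 against 2.36 RPKM, 84.98-fold lower (72.02 to 101). Mgll (monoglyceride lipase) was at 41.2 against 0.703 RPKM, 58.6-fold lower (44.8 to 78.2). The regulators of the first lipase were low on both sides, the activator Abhd5 2.85-fold lower (2.68 to 3.03) and the inhibitor G0s2 65.1-fold lower (53.3 to 80.4). Upstream, Adrb3, the fat cell adrenaline receptor, was at 35.1 against 0.429 RPKM, 81.9-fold lower (55.7 to 126). Of the cyclic AMP pathway below it, the kinase subunit Prkar2b was 27.7-fold lower (24.6 to 31.4) and the phosphodiesterase Pde3b 8.42-fold lower (7.81 to 9.096). Adora1, the receptor for adenosine that restrains lipolysis, fell to 0.0464 RPKM from 1.48.

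**Figure D3:**
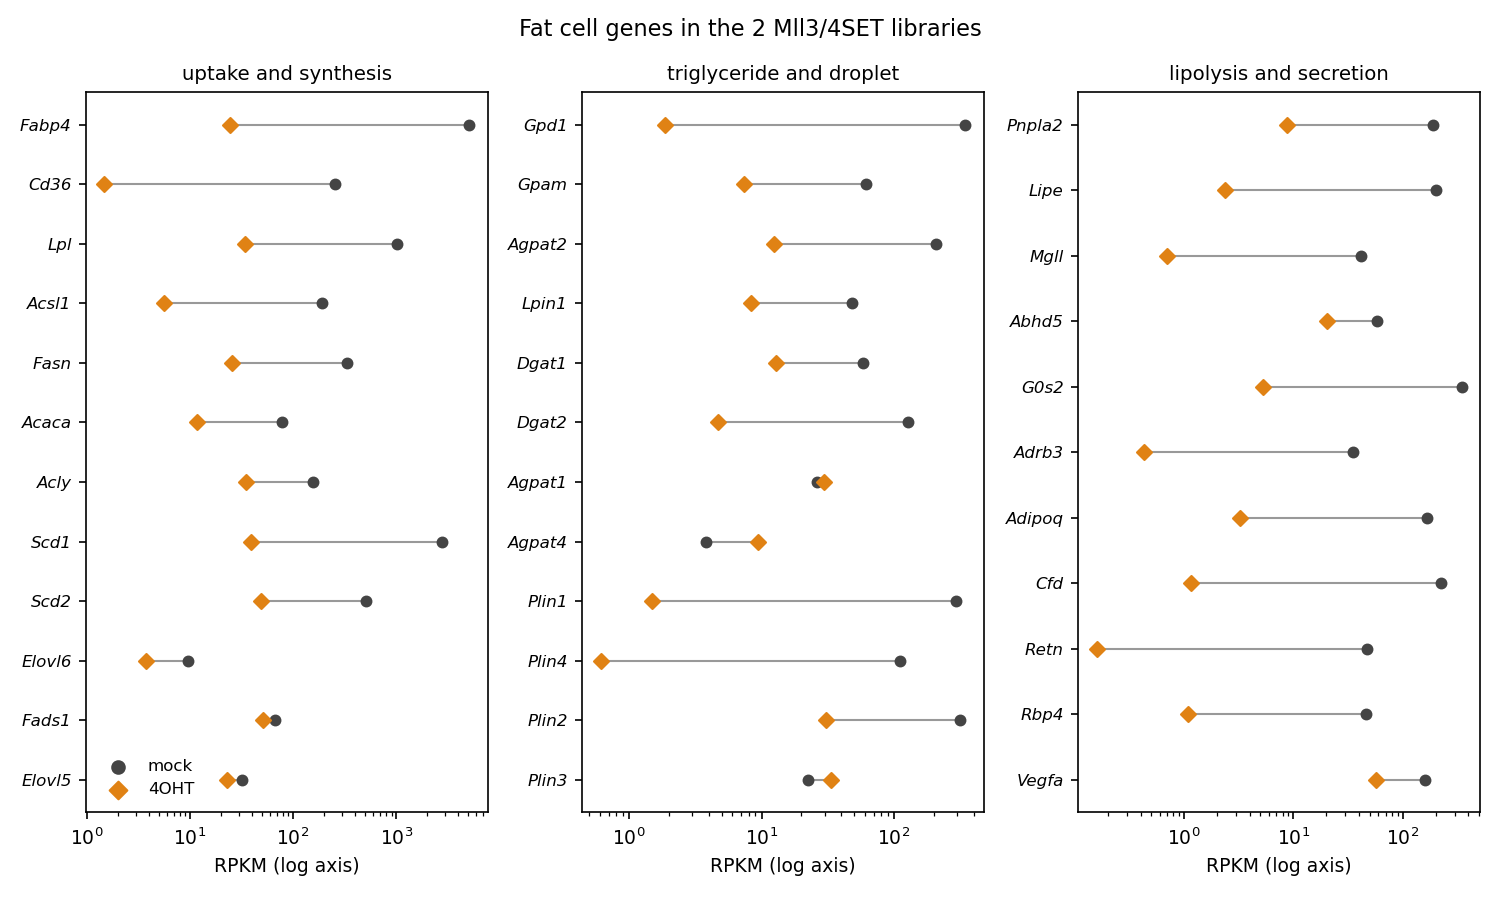
RPKM (horizontal, log axis) of selected genes of fat uptake and synthesis, triglyceride and droplet formation, and lipolysis and secretion, with mock as dark circles and 4OHT as orange diamonds, 1 library each. Diamonds lie left of their circles for most genes, for Plin1 at 1.49 against 293 RPKM, while Fads1, Elovl5, Agpat1 and Plin3 lie near theirs and Agpat4 lies to the right.

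Most secreted products of fat cells were lower. Adipoq, the adiponectin gene, was at 167 RPKM in mock against 3.22 RPKM with 4OHT, 51.9-fold lower (41.9 to 64.99). Cfd, which encodes adipsin, a complement protease, was at 224 against 1.15 RPKM, 195-fold lower (129.7 to 308). Retn, the resistin gene, fell from 618 reads to 2, 301-fold lower (82.9 to 2490.2), an interval made wide by the few reads. Rarres2 (chemerin) and Rbp4 (a retinol carrier) were 40.7-fold lower (30.8 to 55.02) and 42.3-fold lower (27.8 to 67.8). The plasma proteins haptoglobin (Hp), orosomucoid (Orm1) and hemopexin (Hpx) were low too, with Hp at 989 against 10.8 RPKM, Orm1 at 42.9 against 0.1802 RPKM and Hpx at 87.6 against 0.592 RPKM. Vegfa, a vessel growth factor, was 2.80-fold lower (2.703 to 2.90) and Nampt 2.39-fold lower (2.28 to 2.52). C1qtnf3, a relative of adiponectin, was higher, at 0.535 against 4.397 RPKM (28 and 224 reads). In all 19 of 27 were lower and 1 higher, with a median of -1.73.

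Of 25 measured thermogenic and brown fat genes, 11 were lower and 2 higher, with a median of -0.78. Ppargc1a, a coactivator that drives mitochondrial genes, was at 5.02 RPKM in mock against 0.143 RPKM with 4OHT, 35.2-fold lower (22.6 to 57.98). Kcnk3, a potassium channel of brown fat, was at 14.3 against 0.0726 RPKM (1216 and 6 reads). Cox8b, a cytochrome oxidase subunit of brown fat and muscle, was at 10.8 against 0.635 RPKM. The regulators of brown identity moved less. Prdm16 was at 1.73 against 1.32 RPKM and Ebf2 at 6.42 against 3.36 RPKM, both inside the limit. Slc6a8, the creatine transporter, was at 11.1 RPKM in mock against 49.01 RPKM with 4OHT, 4.43-fold higher (4.13 to 4.75), while Ckb, a creatine kinase, was 2.79-fold lower (2.06 to 3.82).

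Lists of mitochondrial fuel genes had smaller median differences than those of fatty acid synthesis, triglyceride synthesis and lipolysis, though not all were smaller than fatty acid uptake. Of 52 measured genes of fatty acid oxidation and peroxisomes, 22 were lower and none higher, with a median of -0.94. Pex11a, a peroxisome division factor, was 18.4-fold lower (13.6 to 25.4), Acadm, the medium-chain dehydrogenase, 7.22-fold lower (6.46 to 8.08), and Cat, catalase, 5.60-fold lower (5.23 to 5.999). Of 33 genes of the TCA cycle and pyruvate entry, 20 were lower and none higher, with a median of -1.10. Brp44l and Brp44 (current symbols Mpc1 and Mpc2), the subunits of the mitochondrial pyruvate carrier, were 9.88-fold lower (6.69 to 15.1) and 3.76-fold lower (3.27 to 4.33). Cs, citrate synthase, was 4.17-fold lower (3.997 to 4.34) and Idh3a, an isocitrate dehydrogenase subunit, 4.51-fold lower (4.20 to 4.85). Among the kinases that block pyruvate dehydrogenase, Pdk1, Pdk2 and Pdk4 were lower, and Pdk3 was at 10.6 against 17.4 RPKM.

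Of 61 measured subunits of the respiratory chain 8 were lower and none higher, and the median was -0.73 (0 higher and 15 lower under median-ratio scaling). Uqcrfs1 and Cyc1, of complex III, were 2.48-fold lower (2.28 to 2.71) and 2.45-fold lower (2.28 to 2.64), and Atp5b, a subunit of ATP synthase, was at 639 against 287 RPKM, 2.23-fold lower (2.18 to 2.28). Mitochondrial ribosomal proteins had 1 lower gene of 57 and a median of -0.25, and cytosolic ribosomal proteins had none past the limit of 52 and a median of 0.39. Breakdown of branched-chain amino acids, which fat cells use as a carbon source, had 12 lower and 1 higher of 26. Aldh6a1 and Mccc1, enzymes late in the valine and leucine paths, were 4.88-fold lower (4.52 to 5.28) and 4.23-fold lower (3.79 to 4.73). At the first step, Bcat2, the mitochondrial transaminase, was at 22.4 against 15.2 RPKM and Bcat1, the cytosolic one, at 5.08 against 17.9 RPKM, 3.52-fold higher (3.27 to 3.799).

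Of the 41 measured genes of glucose uptake and insulin signalling 9 were lower and 1 was higher, with a median of -0.38. Slc2a4, the GLUT4 transporter that insulin moves to the surface, was at 28.1 RPKM in mock against 1.24 RPKM with 4OHT, 22.6-fold lower (17.96 to 28.8). Tbc1d4, which couples insulin to GLUT4 movement, was 19.1-fold lower (15.4 to 24.1). Insr and Irs2, the insulin receptor and a docking protein, were 2.62-fold lower (2.47 to 2.78) and 3.01-fold lower (2.68 to 3.39). Slc2a1, the GLUT1 transporter of most cells, was at 36.8 against 27.96 RPKM, inside the limit, as were Irs1 at 17.5 against 9.08 RPKM and Akt2 at 18.7 against 12.1 RPKM. The higher gene was Trib2, a pseudokinase that restrains fat cell formation, at 5.22 against 12.5 RPKM.

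Of 42 measured hypoxia targets and glycolysis genes, 18 were lower and none higher, with a median of -0.90. Egln3, a prolyl hydroxylase that is itself induced by hypoxia, was at 52.7 RPKM in mock against 1.45 RPKM with 4OHT, 36.4-fold lower (29.3 to 45.7). Ero1l, an oxidase of the endoplasmic reticulum, was at 454 against 36.5 RPKM, 12.4-fold lower (12.01 to 12.9). Among glycolytic enzymes, Aldoa was at 996 against 276 RPKM and Ldha at 375 against 122 RPKM. The HIF subunits did not move together, with Epas1 (HIF-2α) 8.31-fold lower (7.03 to 9.87) and Hif1a at 92.5 against 113 RPKM. Gapdh, which has many pseudogenes, had 70 and 38 reads, too few for its known abundance, and is uncertain here.

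Of 18 measured genes of cholesterol efflux and apolipoproteins, 9 were lower and 2 higher, with a median of -1.10. Apoc1, a small apolipoprotein, dropped from 802 reads to 0, which is at least 260.3-fold lower with a floor of 3 reads per library. Abcg1 and Abca1, pumps that export cholesterol, were 162-fold lower (97.97 to 289.7) and 3.02-fold lower (2.92 to 3.12). Soat1, which esterifies cholesterol, was higher, at 11.3 against 26.9 RPKM. The synthesis and uptake list had 4 lower and 1 higher of 26 and a median of -0.35, with Insig1, a sterol sensor, 4.77-fold lower (4.36 to 5.22). Srebf2, the main activator of these genes, was at 24.1 against 35.8 RPKM. Of 24 measured genes of retinoid and steroid handling, 12 were lower and none higher. Dhrs9, a retinol dehydrogenase, fell from 824 to 3 reads, 267-fold lower (91.2 to 1299.6), and Aldh1a7, an aldehyde dehydrogenase, was 33.3-fold lower (23.5 to 48.6).

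Part of the complement and interferon genes was lower. Of 16 measured complement genes 9 were lower and 1 was higher, with a median of -1.14. C3, the central component, was at 489.5 RPKM in mock against 5.64 RPKM with 4OHT, 86.7-fold lower (80.2 to 93.98), and C4b at 163 against 6.39 RPKM. Reads of C4b and its near-identical copy C4a may be mixed. Cd55, which protects cells from complement, was the higher member, at 3.27 against 16.03 RPKM, 4.90-fold higher (4.18 to 5.78). Of 49 measured interferon-inducible genes 13 were lower and none higher, with a median of -0.49. H2-K1, a class I antigen-presenting molecule, was at 736 against 212 RPKM, 3.47-fold lower (3.38 to 3.56), and Rsad2, an antiviral enzyme, 5.198-fold lower (4.799 to 5.64). Of the macrophage markers given above, Cd74 and Mpeg1 were lower at the same time, while Cd14, Lyz2 and Cd68 stayed inside the limit. The list summed to 13.1 and 4.34 RPKM, and the part of such cells in the complement and interferon lists was not tested.

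Of 44 measured cytokines, chemokines and receptors, 8 were lower and 2 higher, with a median of -0.09. A ligand and its receptor went opposite ways. Il33, an alarm cytokine, was at 24.3 RPKM in mock against 0.492 RPKM with 4OHT, 49.4-fold lower (33.8 to 75.3), while Il1rl1, which encodes its receptor ST2, was at 4.22 RPKM in mock against 38.9 RPKM with 4OHT, 9.21-fold higher (8.14 to 10.5). Another Il1rl1 transcript was at 1.47 RPKM in mock against 13.3 RPKM with 4OHT. Which of these transcripts encodes the membrane-bound receptor was not examined. Chemokines were also split. Cxcl12, a chemokine of stromal cells, was at 439 against 53.5 RPKM, 8.199-fold lower (7.84 to 8.58), and its scavenger receptor Cxcr7 (current symbol Ackr3) was 3.92-fold lower (3.43 to 4.50). Ccl7, which attracts monocytes, was at 101 against 285 RPKM, 2.82-fold higher (2.68 to 2.98).

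Contractile genes were higher or inside the limit. Of 39 measured genes of the actin cytoskeleton and smooth muscle contraction, 19 were higher and none lower, with a median of 0.98 beside 0.12 over all genes and 5.2% of all genes higher. Under median-ratio scaling the list had 17 higher and 1 lower genes and a median of 0.86. Acta2, smooth muscle actin, was at 115 RPKM in mock against 615 RPKM with 4OHT, 5.33-fold higher (5.17 to 5.51). Its relative Actg2 was at 9.26 against 54.4 RPKM, and both genes are alike enough that some of their reads could be mixed. Cnn1, calponin, which marks contractile smooth muscle, was at 2.58 against 24.9 RPKM, 9.65-fold higher (7.95 to 11.8). Tagln (transgelin) was at 67.9 against 243 RPKM, 3.58-fold higher (3.42 to 3.75), and Myl9, a light chain of myosin, at 33.5 against 116 RPKM, 3.46-fold higher (3.202 to 3.75). Myh11, the smooth muscle myosin heavy chain, reached 6.605 RPKM from 0.824. Among stress fibre genes of many cell types, Flna (filamin) was 2.33-fold higher (2.298 to 2.37), Tpm1 (tropomyosin) 2.72-fold higher (2.61 to 2.85) and Actn1 (α-actinin) 2.59-fold higher (2.49 to 2.70). Vcl (vinculin) and Palld stayed just inside the limit, at 52.3 against 98.8 RPKM and 16.1 against 32.8 RPKM. The skeletal muscle genes Myod1, Myog, Myf5 and Myf6 were at 0 reads, and Pax3 was measured in both libraries, as stated above.

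Contractile promoters were searched for the CArG box, the site of the factor SRF, on both strands. Of 44 listed genes 38 had a promoter in the RefSeq table (GRCm38.p6), and 8 of these (21.1%) held a CArG box, against 1.81% (488 of 27025) of all genes with a promoter. The 8 were Cnn2, Myl6, Myl9, Vcl, Ldb3, Fhl1, Fhl2 and Vil1, and Vcl stayed inside the limit. The count covers listed genes whatever their difference, and a link between box and difference was not tested. The windows of Cnn2 (chr10:79988350-79988649, plus strand) and Myl9 (chr2:156775214-156775513, plus strand) are shown because both genes were called higher, with Cnn2, a calponin, 3.01-fold higher (2.85 to 3.18). Capitals mark the CArG box, whose first base lies at -56 from the start in Cnn2 and at -161 in Myl9.
Cnn2: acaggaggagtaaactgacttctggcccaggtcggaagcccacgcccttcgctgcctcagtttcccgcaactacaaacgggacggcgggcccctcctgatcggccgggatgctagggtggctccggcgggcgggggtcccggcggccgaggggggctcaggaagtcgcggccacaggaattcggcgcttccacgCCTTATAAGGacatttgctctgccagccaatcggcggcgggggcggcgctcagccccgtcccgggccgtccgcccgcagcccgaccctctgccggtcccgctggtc
Myl9: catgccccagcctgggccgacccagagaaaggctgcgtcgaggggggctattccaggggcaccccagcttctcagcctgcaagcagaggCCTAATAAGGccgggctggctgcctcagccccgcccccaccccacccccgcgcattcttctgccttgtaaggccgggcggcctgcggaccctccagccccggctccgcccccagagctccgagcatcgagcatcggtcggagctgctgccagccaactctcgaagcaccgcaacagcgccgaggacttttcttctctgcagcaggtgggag
The Cnn1 and Acta2 windows held no CArG box, which says only that these letters are not in those 300 bases.

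Srf was at 9.35 against 11.6 RPKM and Mkl1, its actin-regulated partner, at 9.44 against 18.8 RPKM. Of 32 measured genes around SRF, YAP and TEAD, 4 were higher and 1 was lower, with a median of 0.27. Vgll3, a TEAD cofactor, was at 14.1 RPKM in mock against 44.6 RPKM with 4OHT, 3.16-fold higher (2.94 to 3.39). Tead1 was 2.19-fold higher (2.12 to 2.26), Axl, a receptor kinase, 2.43-fold higher (2.36 to 2.51), and Ctgf, a matrix-linked growth factor, 2.36-fold higher (2.18 to 2.56). Cyr61, another well-known YAP target, was at 54.6 against 71.3 RPKM, inside the limit, and Amotl2, also a YAP target, was 2.503-fold lower (2.38 to 2.63).

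**Figure D4:**
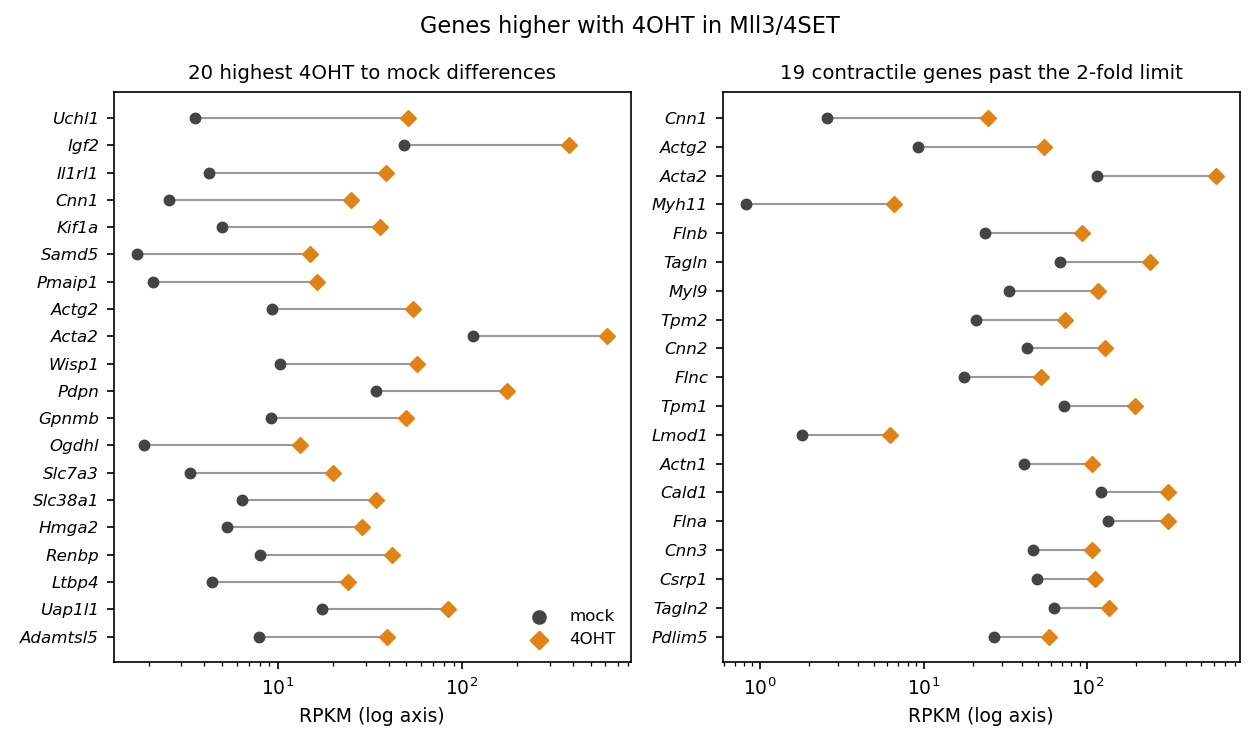
RPKM (horizontal, log axis) of the 20 highest genes by log2 difference that reached 10 RPKM in a library (left) and of the 19 contractile genes called higher (right), with mock as dark circles and 4OHT as orange diamonds, 1 library each. All diamonds lie right of their circles, from 2.18-fold for Pdlim5 to 14.3-fold for Uchl1.

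The matrix was changed in both directions. Of 31 measured collagen genes and collagen-processing enzymes, 10 were lower and 3 higher, with a median of -0.47. Col15a1, a collagen of basement membrane zones, was at 179.8 RPKM in mock against 4.66 RPKM with 4OHT, 38.6-fold lower (35.4 to 42.1). Col4a1 and Col4a2, the basement membrane chains, were 3.202-fold lower (3.12 to 3.28) and 2.06-fold lower (2.01 to 2.11), and Col6a1 and Col6a2 were at 391 against 70.4 RPKM and at 252 against 49.7 RPKM. Col6a3, the third chain of collagen VI, was at 104 against 91.5 RPKM, inside the limit. Fibril collagens stayed inside it as well, with Col1a1 at 1245 against 864 RPKM and Col1a2 at 802 against 904 RPKM. Col8a1, a collagen of vessel walls, was 2.204-fold higher (2.05 to 2.37).

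Among 49 other matrix genes 11 were lower and 7 higher, with a median of 0.32. Smoc1, a calcium-binding matrix protein, fell from 1638 to 13 reads, 123-fold lower (71.5 to 231), while its relative Smoc2 was higher, at 3.08 against 8.93 RPKM. Nid2, which ties basement membranes together, was 6.06-fold lower (5.72 to 6.42). Higher members included Ltbp4, which stores latent TGF-β, at 4.402 against 24.1 RPKM, Tnc (tenascin C), 2.84-fold higher (2.76 to 2.92), and the elastic fibre genes Fbln5 and Loxl1, 2.57-fold higher (2.46 to 2.68) and 2.54-fold higher (2.45 to 2.64). Of 31 measured matrix proteases and inhibitors 10 were higher and 2 lower, with a median of 0.48 (6 higher and 2 lower under median-ratio scaling). Mmp14, a membrane-bound protease, was at 109 against 291 RPKM, and the protease inhibitors Timp2 and Timp3 were at 103 against 290.2 RPKM and 70.8 against 206 RPKM. Ctsk, a protease that cuts collagen, was at 35.5 against 132 RPKM, 3.71-fold higher (3.48 to 3.97).

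Progenitor markers did not move as a block. Of 31 measured 5 were lower and 5 higher, with a median of 0.48 (3 higher and 5 lower under median-ratio scaling). Pdgfra, a receptor that marks fat progenitors, was at 109 RPKM in mock against 44.7 RPKM with 4OHT, 2.43-fold lower (2.36 to 2.502), whereas its relative Pdgfrb was at 36.8 against 67.1 RPKM, inside the limit. Ly6a (Sca-1) was 3.22-fold lower (3.03 to 3.43), and Sfrp1 and Sfrp2, which bind Wnt ligands, were 3.15-fold lower (3.02 to 3.295) and 2.97-fold lower (2.76 to 3.21). Cd44, a hyaluronan receptor, was 3.01-fold higher (2.87 to 3.16), and the integrin chain Itgb1 2.14-fold higher (2.098 to 2.19). Dlk1, which restrains fat cell formation, was at 7.79 against 11.01 RPKM.

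The 2 insulin-like growth factors went opposite ways, with Igf2 above Igf1 in both libraries. Igf1 was at 40.5 RPKM in mock against 1.39 RPKM with 4OHT, 29.2-fold lower (25.4 to 33.6), and Igf2 at 48.6 RPKM in mock against 379.8 RPKM with 4OHT, 7.81-fold higher (7.56 to 8.08). Igf1r and Igf2r, their receptors, were at 9.38 against 18.3 RPKM and 24.8 against 46.2 RPKM, inside the limit. Ghr, the growth hormone receptor, which drives Igf1 in liver, was 3.05-fold lower (2.84 to 3.27), and Igfbp4, a binding protein, 6.73-fold lower (6.36 to 7.12). Igf2 lies beside H19 in an imprinted domain, and H19, a long noncoding RNA, was at 377 against 1055 RPKM, 2.799-fold higher (2.76 to 2.84). Of 24 measured imprinted genes 6 were higher and none lower, with a median of 0.64 (5 higher and 1 lower under median-ratio scaling). The other higher genes were Impact, Rian, Ndn and Mirg. Meg3, which neighbours Rian, was at 79.3 against 158 RPKM, just inside the limit, and Peg3 was at 5.76 against 2.46 RPKM.

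Over all 54 measured growth factors and receptors 13 were lower and 10 higher. Ptn and Mdk, which are related heparin-binding factors, were 3.21-fold higher (3.07 to 3.37) and 3.65-fold higher (2.801 to 4.81). Fgf10, a growth factor of fat progenitors, was 4.01-fold lower (3.498 to 4.62), and Ngfr fell from 169 to 2 reads. Of 46 genes of TGF-β and Wnt signalling 3 were lower and 6 higher, beside 7.41% and 5.2% of all genes. Acvr1c, the ALK7 receptor that is abundant in fat cells, fell from 2192 to 11 reads, 194-fold lower (108 to 389). Rspo2 and Rspo3, related amplifiers of Wnt signals, went opposite ways, at 7.28 against 0.829 RPKM and at 7.71 against 20.9 RPKM. Fstl1, a secreted glycoprotein, became one of the most abundant RNAs, at 338 against 1023 RPKM.

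A list of genes best known from neurons, chosen with earlier results of these data known, had 14 higher and 2 lower of 36 measured members. The shares over all genes were 5.2% and 7.41%. The list median was 0.76 (14 higher and 2 lower under median-ratio scaling). Many listed genes, such as Syt1, Snap25 and Mapt, were under 1 RPKM in both libraries and are not in this count. The lower members were Plxnd1, 3.64-fold lower (3.32 to 3.99), and Sema3f, 5.71-fold lower (4.25 to 7.82). Uchl1, a ubiquitin hydrolase abundant in neurons, had the largest higher difference at 10 RPKM or more, at 3.56 RPKM in mock against 51.04 RPKM with 4OHT, 14.3-fold higher (11.6 to 17.9). Kif1a, an axonal motor, was at 5.01 against 35.8 RPKM, 7.14-fold higher (6.66 to 7.66). Efnb2, a guidance ligand, was 4.74-fold higher (4.26 to 5.29), and Ncam1, an adhesion molecule, 3.004-fold higher (2.84 to 3.18). Gap43 and Penk were higher from under 1 RPKM, at 0.3798 against 4.01 RPKM and 0.573 against 5.95 RPKM. These genes and Tubb4a, at 0.181 against 2.51 RPKM, counted as measured only through the 4OHT library. Among markers of neurons and glia, Rbfox3 was at 0 against 0.0153 RPKM and Sox10 at 0 against 0.0170 RPKM. The glial genes S100b, with 52 reads in mock and 19 with 4OHT, and Mbp, with 72 and 20, lay on the lower side, at 1.41 against 0.528 RPKM and 0.671 against 0.191 RPKM, inside the limit.

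Lysosomal genes were higher in part. Of 44 measured 9 were higher and 2 lower, with a median of 0.49 (7 higher and 2 lower under median-ratio scaling). Gla, which removes a sugar from sphingolipids, was 4.31-fold higher (3.85 to 4.82). Gaa, which breaks down glycogen, was at 58.1 against 152 RPKM and Lamp1, a membrane protein of lysosomes, at 198 against 423 RPKM. The lower members were Plbd1, with 247 reads in mock and 0 with 4OHT, and Acp5, at 6.93 against 0.787 RPKM.

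Few cell cycle genes passed the limit. Of 51 measured mitosis genes 3 were higher, Ccnb1, Tpx2 and Bub1b, and none lower, beside 5.2% and 7.41% of all genes. Under median-ratio scaling 0 mitosis genes were higher and 0 lower. Their median was nevertheless 0.69, beside 0.12 over all genes, and most members lay on the higher side inside the limit. Examples were Plk1, 2.16-fold higher (1.76 to 2.65), Hmmr, 2.17-fold higher (1.89 to 2.51), and Cdk1, 1.75-fold higher (1.57 to 1.95). Mki67, a general marker of dividing cells, was among the members nearest to no difference, at 11.1 against 11.7 RPKM. Pttg1 and Ccnd3 alone had differences below mock, both small. Of 53 replication genes 1 was higher, Dnmt1, which copies DNA methylation to new strands, and the median was 0.28 (0 higher and 0 lower under median-ratio scaling). Large T antigen, present in both cultures, is known to bind p53 and the Rb family. Targets of p53 and inhibitors of the cell cycle had 8 higher and 4 lower members of 44, with a median of 0.29 (6 higher and 5 lower under median-ratio scaling). Pmaip1, which encodes the death-promoting protein Noxa, was at 2.12 RPKM in mock against 16.4 RPKM with 4OHT, 7.75-fold higher (6.42 to 9.41). Bax and Fas, also genes of cell death, were 2.18-fold higher (2.01 to 2.37) and 2.44-fold higher (2.12 to 2.81). Cdkn1a (p21) and Mdm2 were at 121 against 207 RPKM and 37.03 against 64.5 RPKM, inside the limit. Cdkn2c, an inhibitor of cyclin-dependent kinases, was 3.29-fold lower (2.93 to 3.71). Housekeeping genes had 1 lower and 2 higher of 24, beside 7.41% and 5.2% of all genes. Their median was 0.25 (2 higher and 2 lower under median-ratio scaling).

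Genes that were present in mock and nearly gone with 4OHT were looked for without a fold. Of 5321 genes at 10 RPKM or more in mock, 55 were under 1 RPKM with 4OHT, and of 5495 genes at 10 RPKM or more with 4OHT none was under 1 RPKM in mock. Apoc1 and Adig, a small adipocyte protein, had no reads left, from 802 and 671 in mock, so that Adig was at least 218-fold lower against the floor of 3 reads per library. Beside the lipid genes already named, the 55 held Mrap, an accessory protein of melanocortin receptors that is highly expressed in fat, at 66.97 against 0.605 RPKM. Lgals12, a galectin of lipid droplets, fell from 1575 reads to 6, and Klb, the coreceptor for FGF21, from 1802 to 11. Signal receptors of fat cells were among them, with Ffar2, a receptor for short-chain fatty acids, at 14.4 against 0.145 RPKM, Tshr, the thyrotropin receptor, at 10.7 against 0.588 RPKM, and Adcy5, an adenylate cyclase, at 12.7 against 0.647 RPKM. On the other side the gene nearest to appearing from nothing was Samd5, at 1.73 RPKM in mock against 15.03 RPKM with 4OHT, followed by Ogdhl, a relative of a TCA cycle enzyme, at 1.89 against 13.3 RPKM.

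Outside the lists, further genes stood among the 25 lowest. Car3, a carbonic anhydrase very abundant in fat cells, was at 214 RPKM in mock against 3.47 RPKM with 4OHT, 61.7-fold lower (51.3 to 74.8). Aoc3, an amine oxidase on the fat cell surface, was 67.2-fold lower (55.1 to 82.8). Lrg1, a secreted glycoprotein, was 114-fold lower (69.7 to 199), and Arxes2, a gene reported as a PPARγ target in mouse fat cells, 49.8-fold lower (41.6 to 60.1). Arxes1, its near-identical neighbour, was at 34.6 against 0.234 RPKM, and reads of the pair may be mixed. Among the 25 highest outside the lists, Pdpn (podoplanin, a surface protein of stromal cells) was at 33.98 against 175 RPKM, 5.16-fold higher (4.87 to 5.48). Gpnmb, a glycoprotein of the cell surface and lysosomes, was 5.38-fold higher (4.98 to 5.82), and Hmga2, a chromatin protein of growing mesenchymal cells, 5.40-fold higher (4.903 to 5.96). Wisp1 (current symbol Ccn4), a matricellular protein, was at 10.3 against 57.2 RPKM, and Tmsb4x, which binds actin monomers, at 143 against 605 RPKM. A pair of amino acid carriers from the list of amino acid response also stood there, with Slc38a1 5.37-fold higher (5.01 to 5.75) and Slc7a3 5.97-fold higher (5.09 to 7.04).

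Transcript rows of the same gene nearly always showed the same difference. Of 1921 names with at least 2 rows at 5 RPKM or more, 1776 had rows within 0.1 of each other on the log2 scale, 3 spanned 1 or more, and none had rows past the limit in opposite directions. Rows of a name may share reads. In Qk, an RNA-binding splicing regulator, the most abundant row had 48.3 RPKM in mock against 37.9 RPKM with 4OHT, inside the limit. The other rows of Qk were lower, at 38.8 against 12.5 RPKM and at 44.5 against 15.04 RPKM. The remaining pair with such a span, Mgll and Retn, had rows that were all lower.

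The same genes were read in the LSL-K4M line (genotype LSL-K4M;CreER), where 4OHT is meant to switch on the histone mutant of the line's name, with methionine in place of lysine 4 of histone H3. Its mock and 4OHT libraries carry the same stage label and culture protocol, with the same doubt over the day of 4OHT, 1 library each, and no library is shared between the pairs. There 753 of 12179 genes (6.18%) were lower, 641 (5.26%) higher, and 11.4% passed the limit in either direction. Of the genes lower in Mll3/4SET 563 were lower in both, 62.3% of 903 and 74.8% of 753. Of the genes higher in Mll3/4SET 372 were higher in both, 58.8% of 633 and 58.0% of 641. The shared lower genes had medians of -1.96 in Mll3/4SET and -1.54 in LSL-K4M, and 430 of the 563 were lower by more in Mll3/4SET. The shared higher genes had medians of 1.36 and 1.40, and 180 of the 372 were larger in Mll3/4SET. Since each pair is 1 library against 1, the difference between lines was not tested.

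The genes with the widest gaps between the lines included the fat cell genes Fabp4, Car3 and Retn. Fabp4 was 210.5-fold (189 to 235) lower in Mll3/4SET and 3.85-fold (3.78 to 3.92) lower in LSL-K4M, with mock levels of 5119 and 4099 RPKM. Car3 was 61.7-fold (51.3 to 74.8) and 2.38-fold (2.33 to 2.44) lower, and Retn 301-fold (82.9 to 2490.2) and 2.602-fold (2.38 to 2.84). Of the 55 genes that were nearly gone, 53 were lower in LSL-K4M too, yet 3 of the 55 were under 1 RPKM in its 4OHT library: Gbp11, Pla2g2e and Dhrs9. The 2 not called lower there were Col28a1, at 18.7 and 11.97 RPKM, and Ctla2a, at 3.33 and 2.15. Acta2 was 5.33-fold (5.17 to 5.51) higher in Mll3/4SET and 5.44-fold (5.31 to 5.57) higher in LSL-K4M. Pck1 was lower in Mll3/4SET at 9.58 against 0.0705 RPKM but stood at 1.43 and 1.46 RPKM in LSL-K4M. Col4a1 and Ccnb1, called in Mll3/4SET, were inside the limit in LSL-K4M, with Col4a1 at 206 and 157 RPKM and Ccnb1 at 26.5 and 22.8 there.

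**Figure D5:**
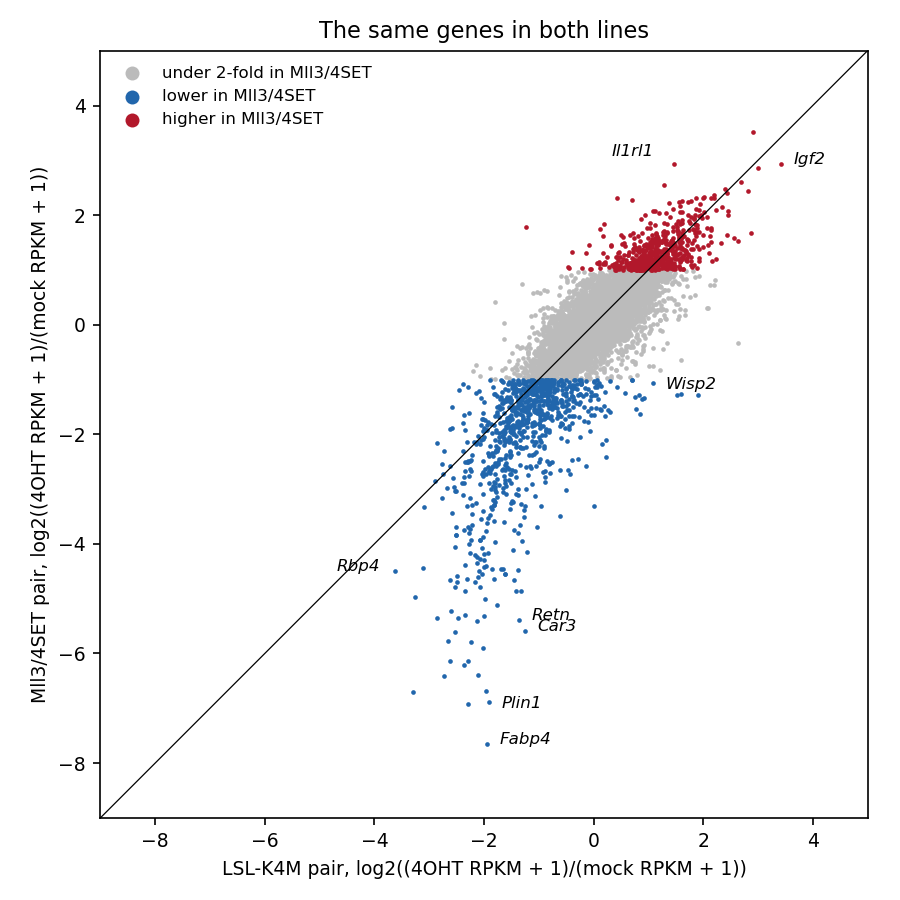
Difference of each gene measured in both lines on the log2(RPKM + 1) scale, LSL-K4M (horizontal) against Mll3/4SET (vertical), coloured by the call in Mll3/4SET, with equal differences on the line. Fabp4 and Plin1 reach -7.66 and -6.89 in Mll3/4SET and -1.94 and -1.91 in LSL-K4M.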

How the data were processed

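RNA was measured in 1 mock and 1 4OHT library of the Mll3/4SET line and, for comparison, of LSL-K4M, grouped by their labels. The ChIP-seq and input samples were not analysed here. Per the file headers, the authors deposited for each line a table with the read count and the RPKM of each RefSeq transcript. The deposited ratio column equals (mock RPKM + 0.001)/(4OHT RPKM + 0.001) in every row (relative tolerance 1e-06) and was not used. Another deposited column (unit other) gives the number of libraries at 1 RPKM or more and was not used either. Per the submitters' processing notes the build was mm9 and SICER was used for part of the series; the aligner, the counter and the use of strand are not given in the sources used here. Overlapping and antisense genes, and genes with near-identical copies, are therefore uncertain. No column was left unused for want of a sample (0 columns).

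The table holds 29082 transcripts under 22835 names, of which 3906 have several rows; the row with the highest mean RPKM of the pair was used. Current symbols were matched by RefSeq accession for 98.0% of names (GRCm38.p6). A pseudocount of 1 RPKM, a minimum of 1 RPKM in the higher library and a limit of 2-fold were used, with no test. Intervals are exact conditional binomial (95%), cover counting error only, and reads carry no molecular identifiers. The 51 gene lists (1744 genes, 1741 in the tables), the marker lists, the members and the alternatives were chosen with earlier results of these data known. The rule for named genes took the 25 lowest and 25 highest genes at 10 RPKM or more without predicted loci, up to 6 largest and 3 smallest members of each list, genes nearly gone, genes with split rows, genes that differ most from LSL-K4M and the targeted genes; further genes named for their role in a pathway were chosen with their values seen. Alternatives were other pseudocounts and minimums, 2 other scalings, the longest row and names with a single row. The calling was tested on simulated counts that held counting error alone, so the simulation does not cover variation between cultures. Python 3.11.15, NumPy 2.4.6, pandas 2.3.3, SciPy 1.17.1 and Matplotlib 3.10.9 were used.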

Additional observations from a re-analysis of the deposited data

Results flagged for a closer look

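Among genes that reached 10 RPKM in both lines, 2 passed the 2-fold limit in Mll3/4SET and LSL-K4M with opposite signs, and both were lower in Mll3/4SET and higher in LSL-K4M. In each line the difference rests on 1 library a side, and the difference between the lines was not tested.

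9930013L23Rik (current symbol Cemip), which encodes a protein that breaks down hyaluronan, had a log2 difference of -1.29 in Mll3/4SET, where it was at 38.2 RPKM in mock against 15.1 RPKM with 4OHT, 2.53-fold lower (2.42 to 2.66). In LSL-K4M it was at 39.7 and 115 RPKM, 2.91-fold higher (2.82 to 2.99). The mock levels of the lines were close to each other and the 4OHT levels were far apart.

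Wisp2 (current symbol Ccn5), a matricellular protein secreted by mesenchymal precursor cells, had a log2 difference of -1.07 in Mll3/4SET, at 15.9 against 7.07 RPKM, 2.25-fold lower (1.95 to 2.61). In LSL-K4M it was at 37.5 and 80.96 RPKM, 2.16-fold higher (2.03 to 2.301).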

How the results depend on the processing

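Smaller pseudocounts raised the number of higher genes from 633 to 1013 (0.1 RPKM) and 1084 (0.001 RPKM), and that of lower genes from 903 to 1134 and 1161, since weak genes then pass the limit. Median-ratio scaling gave 1014 lower and 462 higher genes (68.7% lower against 58.8%). Upper-quartile scaling gave 951 and 558 and put the all-gene median at 0.08 instead of 0.12. A minimum of 5 RPKM gave 689 and 473, the longest row 901 and 628, and names with a single row 720 and 477. The genes nearly gone with 4OHT numbered 59 under median-ratio scaling instead of 55, with none in the other direction. Of 240 called genes followed through both scalings 12 lost the call under median-ratio and 5 under upper-quartile scaling, all at a log2 difference of 1.11 or less, Acsl4 and Peg3 gained one under both, and none reversed. Of 816 counts of list members under alternatives 64 moved, and of 405 list medians 45 moved; the cause was not tested. No paired analysis was possible because each group has 1 library, and for the same reason no library could be left out. Few reads limit genes such as Ucp1 and Retn, and the variation between cultures is not known.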

Other observations

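Clock and glucocorticoid genes were split in the Mll3/4SET line. Of 28 measured 7 were lower and 2 higher, with a median log2 difference of -0.56 (1 higher and 8 lower under median-ratio scaling). Zbtb16, a factor strongly induced by glucocorticoids in many cells, fell from 320 reads to 9, and Hsd11b1, which regenerates active glucocorticoid, was at 4.37 RPKM in mock against 0.411 RPKM with 4OHT. Sgk1, a kinase also induced by glucocorticoids, was at 3.86 against 11.8 RPKM, 3.07-fold higher (2.61 to 3.61). Per2, a clock repressor, was 4.11-fold lower (3.37 to 5.06).

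Of 53 measured antioxidant and detoxification genes 12 were lower and 2 higher, with a median of -0.23 (0 higher and 15 lower under median-ratio scaling). Mgst1, a microsomal glutathione transferase, had 322 against 53.2 RPKM, a level 6.05-fold lower (5.67 to 6.45), and Prdx3, the mitochondrial peroxiredoxin, 2.67-fold lower (2.49 to 2.86). Of 50 genes that answer secretory stress or amino acid shortage 5 were lower and 3 higher, beside 7.41% and 5.2% of all genes. Trib3 was 3.104-fold lower (2.93 to 3.29), Xbp1, a regulator of the secretory pathway, 2.50-fold lower (2.33 to 2.68), and Phgdh, the first enzyme of serine synthesis, higher at 35.7 against 73.2 RPKM. Ion channels and pumps had 4 lower and 5 higher of 29. The stretch-activated channel Fam38a (current symbol Piezo1) was at 32.2 against 76.4 RPKM, 2.37-fold higher (2.302 to 2.45). Trpv2, a calcium channel, was 8.74-fold higher (6.41 to 12.2). Of 13 measured bone and cartilage genes 2 were lower and 1 was higher, Grem1, a secreted BMP antagonist, at 6.91 against 24.3 RPKM. Sox6, a cartilage factor, fell from 229 reads to 1.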
